A study of Rattus norvegicus with 12 samples.

Results

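The genes described here encode subunits of the mitochondrial respiratory chain and of the ATP synthase. They were chosen by name from a list of 50 rat genes, and older symbols of the ATP synthase subunits were counted. The list was set with earlier results of these data known. Of the 50, 39 had a probe that the array's annotation named for them, out of 13336 genes with a named probe in all: 20 of complex I, 4 of complex III, cytochrome c (Cycs), 7 of complex IV and 7 of complex V, the ATP synthase. Each had 1 probe. The probe of Ndufs4, a complex I subunit, was not above background on any of the 12 arrays (signals between 119.7 and 152.8), so 38 members were tested. No named probe was found for Ndufa2, Ndufa9, Ndufb10, Ndufs6, Uqcrc2, Uqcrq, Cyc1, Cox7a1, Cox7a2, Ndufa4 and Atp5pb, which are not analysed here.

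In the respiratory chain, complex I takes electrons from NADH and passes them to coenzyme Q, complex III passes them on to cytochrome c, and complex IV hands them to oxygen. Complexes I, III and IV pump protons across the inner mitochondrial membrane, and the ATP synthase uses the return flow to make ATP. The heart covers nearly all of its ATP demand this way, and cardiomyocytes are dense with mitochondria. A few core subunits are encoded by mitochondrial DNA. All of the members here are encoded in the nucleus, and many carry sites for the transcription factor NRF1 (nuclear respiratory factor 1) in their promoters.

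The data came from left ventricles of 12 adult Wistar rats, whose exact age the labels do not give. Each rat had received an adeno-associated virus (AAV) of serotype 9 through a tail vein, encoding either human VEGF-B, a growth factor of the VEGF family (AAV-VEGF-B, n = 6), or human serum albumin as the control transgene (AAV-HSA, n = 6). The transgene was expressed for 2 months in females (AAV-VEGF-B 1, 3 and 5, and AAV-HSA 2, 4 and 6) and for 4 months in males (AAV-VEGF-B 2, 4 and 6, and AAV-HSA 1, 3 and 5), and in the males the injection was repeated. Expression duration, sex and the repeated injection therefore cannot be told apart, and which VEGF-B isoform a rat received is not in the labels.

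Values are log2 probe signals after background correction and quantile normalization, and changes are differences of their means. A gene was called when its adjusted p (limma, Benjamini-Hochberg over the 10281 probes that were detected on at least 3 arrays) was below 0.05. Between 8827 and 9800 probes per array were detected, and the lowest correlation between any 2 arrays was 0.9882. In whole-ventricle RNA, fewer cells of a type and less RNA per cell cannot be told apart. The cardiomyocyte markers were present throughout: 14 of 16 had a probe, all 14 were detected on every array, none was called between the vectors, and their summed signal ranged from 306000 to 329500 with AAV-VEGF-B and from 312100 to 331100 with AAV-HSA. Of 10 endothelial markers tested, 7 were called higher with AAV-VEGF-B (median change 0.55), beside 4.17% of all probes. The summed signal of the endothelial list, 11610 to 13860 against 8223 to 10320, did not overlap between the vectors. Of 5 smooth muscle and pericyte markers tested, 3 were called higher (median change 0.49), and the summed signal of that list, 1369 to 1840 against 986.9 to 1309, did not overlap either. Upward separation without overlap was seen in 2.96% of the single probes tested, and no such share was computed for summed signals. Ahsp, 1 of 5 red blood cell markers, was also called higher (1.15, SE 0.29, adjusted p = 0.030). The part of these cells in the results below was not tested.

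The member genes lay at the top of the signal range. On every array, 36 of the 38 were within the brightest 500 probes. The probe of Atp5f1a, the alpha subunit of the ATP synthase, ranked between 1 and 3, and that of Atp5f1b, the catalytic beta subunit, between 2 and 8. Quantile normalization gives each rank the same value on every array, so some values of these bright probes recur between hearts. The exceptions were Cox6c, a small nuclear-encoded subunit of complex IV (mean 7.11), and Ndufv3, an accessory subunit of complex I (mean 7.05), whose probes were dim but detected on all 12 arrays. The members varied little between replicate hearts, with a median residual SD of 0.09 against 0.17 over all probes tested.

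To set the genes beside their regulatory sequence, the NRF1 core GCGCATG was looked for on both strands of the promoter windows of RefSeq (250 bases before to 50 bases after the start of the gene, build GRCr8). A window was given for 33 of the 38 members, and 7 of them (21.2%) held the core, against 3.77% of all 33469 windows and 4.32% of the 21851 windows of protein-coding genes. The stretches around the core are shown because they come from 4 different complexes and from cytochrome c. Capitals mark the core or its reverse complement CATGCGC, which overlap each other in Ndufa6 and Atp5po, and each stretch is read 5′ to 3′ on the strand of its gene.
Ndufa6 (complex I, chr7:115750396-115750435, minus strand): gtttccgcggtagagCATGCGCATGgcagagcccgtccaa
Ndufb6 (complex I, chr5:60206219-60206255, minus strand): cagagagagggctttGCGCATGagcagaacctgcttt
Ndufb8 (complex I, chr1:253362937-253362962, minus strand): ccgtgacccgcctttGCGCATGtgca
Uqcrc1 (complex III, chr8:118468169-118468205, plus strand): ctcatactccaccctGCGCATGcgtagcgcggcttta
Cycs (cytochrome c, chr4:80984902-80984938, minus strand): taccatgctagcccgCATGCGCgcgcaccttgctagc
Cox5b (complex IV, chr9:46417686-46417722, plus strand): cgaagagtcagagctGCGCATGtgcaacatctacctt
Atp5po (complex V, chr11:44657518-44657557, minus strand): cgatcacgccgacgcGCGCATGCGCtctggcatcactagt
The other motifs looked for were CCGGAAG of the ETS factors, present in 27.3% of the members' windows and 8.75% of all windows, AAGATGG of YY1 (18.2% and 7.01%) and AAGGTCA of the estrogen-related receptors (6.06% and 4.61%). A match describes these letters only and does not show that a factor binds. The 7 members with the NRF1 core changed between the vectors by a median of -0.12 (from -0.15 to 0.00) and the 26 without it by -0.07 (from -0.25 to 0.07). Their ranges overlapped throughout.

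To find whether the respiratory genes differed after VEGF-B gene transfer, the 6 AAV-VEGF-B hearts were compared with the 6 AAV-HSA hearts. None of the 38 members was called higher and none lower by limma, beside 4.17% of all probes called higher and 1.03% lower. At an unadjusted p below 0.05, 5 members were lower and none higher, while 9.38% of all probes were lower and 10.6% higher. The number of lower members at this threshold moved with the processing, to 12 without background correction (9 of 19 in complex I, beside 9.79% of all probes) and to 0 under scaling of each array to its median (beside 2.17%). The estimates of 32 of 38 were below 0, with a median of -0.07 against -0.02 for all probes, of which 5774 of 10281 were below 0. With quantile normalization, the 95% confidence interval lay within 1.25-fold in either direction for 33 members and within 1.5-fold for 37. The exception was Cox6c, whose interval reached a 1.66-fold decrease. These intervals do not cover the choice of scaling. Relative to the median of all probes, that of the members was -0.05 with quantile normalization and -0.15 with median scaling.

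**Figure D1:**
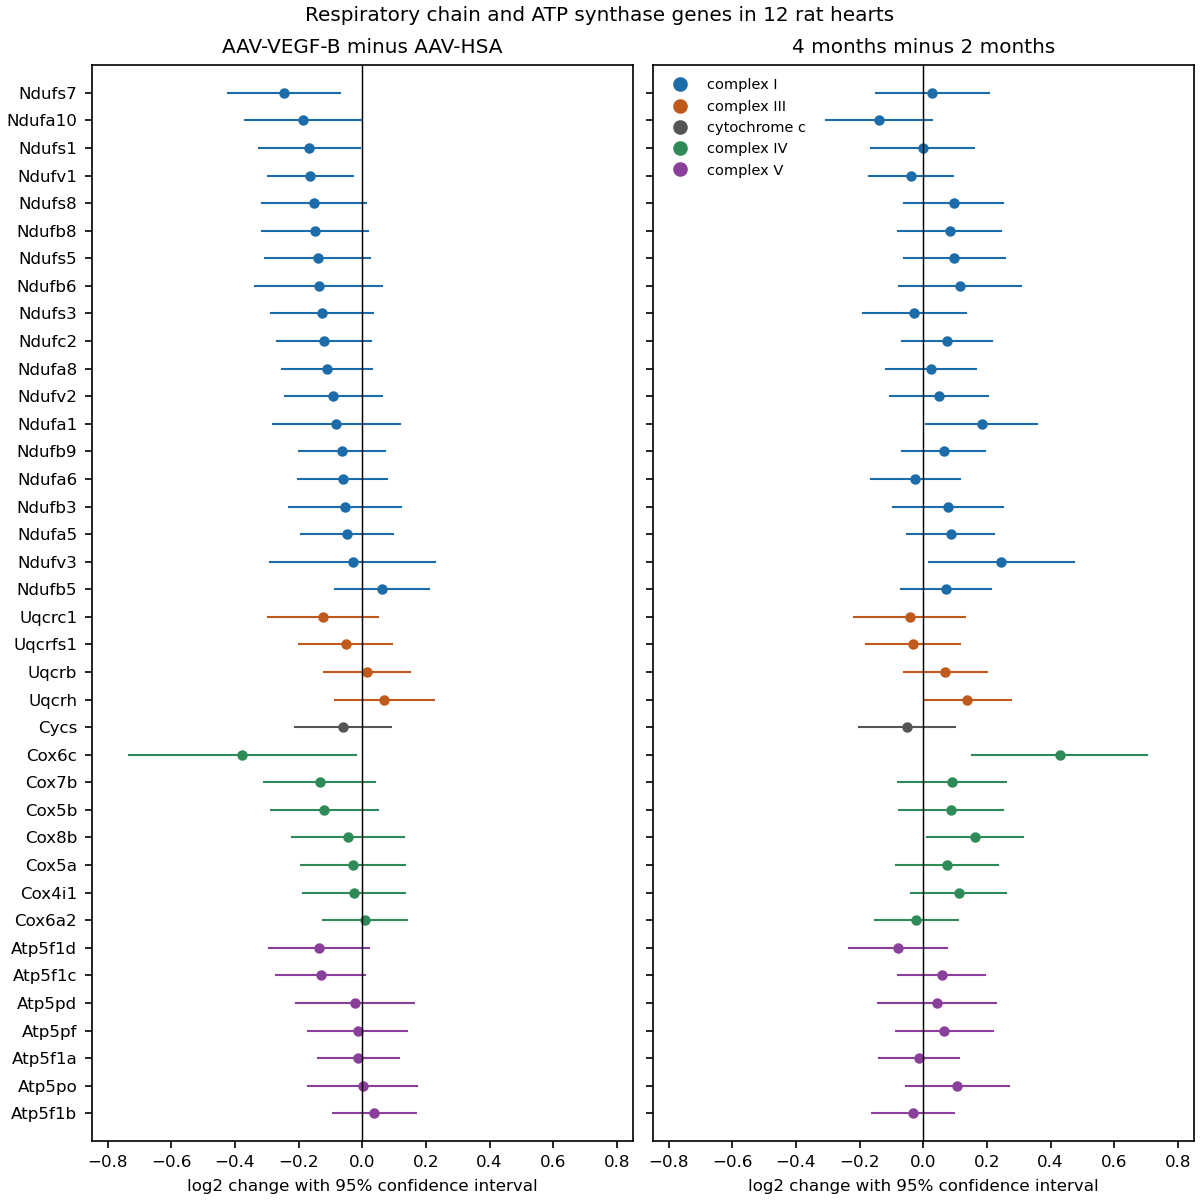
Log2 change of each of the 38 members (points) with its 95% confidence interval (bars), AAV-VEGF-B minus AAV-HSA on the left and 4 months minus 2 months on the right, coloured by complex. For the vectors, 18 of 19 complex I genes lie below 0, and most intervals of every complex, complex I included, cross it. Cox6c has the widest interval in both panels.

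Among the complexes of the members, complex I had the lowest median, but under median scaling complex IV was slightly lower (-0.087 against -0.083). The 8 complex I subunits outside the list had a median of -0.05. Assembly factors (-0.14) and regulators of respiratory genes (-0.15) lay lower than complex I. Of the 19 tested complex I members, 18 had an estimate below 0 (median -0.12) and 4 had an unadjusted p below 0.05, yet the smallest adjusted p was 0.10. That gene was Ndufs7, an iron-sulfur subunit on the path to coenzyme Q. Its values with AAV-VEGF-B 1 to 6 were 12.82, 13.13, 13.14, 13.10, 13.30 and 13.07 (median 13.12), and with AAV-HSA 1 to 6 they were 13.27, 13.41, 13.36, 13.29, 13.46 and 13.25 (median 13.33). Thus 5 of the 6 AAV-VEGF-B hearts lay below every AAV-HSA heart, and AAV-VEGF-B 5 lay among them. The change was -0.25 (SE 0.08, adjusted p = 0.10).

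Ndufv1, the subunit that binds NADH and FMN, was singled out after its values were seen, because its groups did not overlap. The AAV-VEGF-B hearts ranged from 13.36 to 13.50 (median 13.44) and the AAV-HSA hearts from 13.54 to 13.68 (median 13.60). All 6 AAV-VEGF-B hearts were below all 6 AAV-HSA hearts, which was so for 1 of the 38 members and for 0.982% of the probes tested. No member had all AAV-VEGF-B hearts above the controls, as 2.96% of the probes did. The change of Ndufv1 was -0.16 (SE 0.06, adjusted p = 0.15), and at 2 months (-0.15) and at 4 months (-0.17) it was of like size. Without background correction, and in the authors' normalized table, Ndufs7 (adjusted p = 0.042 and 0.043) and Ndufv1 (adjusted p = 0.039 and 0.043) were called lower, 2 of 38 members beside 1.7% and 1.74% of all probes.

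Ndufs1, the large iron-sulfur subunit that takes electrons from Ndufv1, ranged from 13.27 to 13.57 (median 13.45) with AAV-VEGF-B and from 13.49 to 13.72 (median 13.59) with AAV-HSA. The groups overlapped through AAV-VEGF-B 2 and 6, and the change was -0.17 (SE 0.07, adjusted p = 0.23). Ndufa10, an accessory subunit, was at 13.32 to 13.73 (median 13.51) and 13.55 to 13.88 (median 13.71), a change of -0.19 (SE 0.08, adjusted p = 0.24). Here 4 of 6 AAV-VEGF-B hearts were below the lowest control, and AAV-VEGF-B 1 and 5 were among the controls. The only complex I estimate above 0 was that of Ndufb5, a membrane-arm accessory subunit, at 0.06 (SE 0.07).

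**Figure D2:**
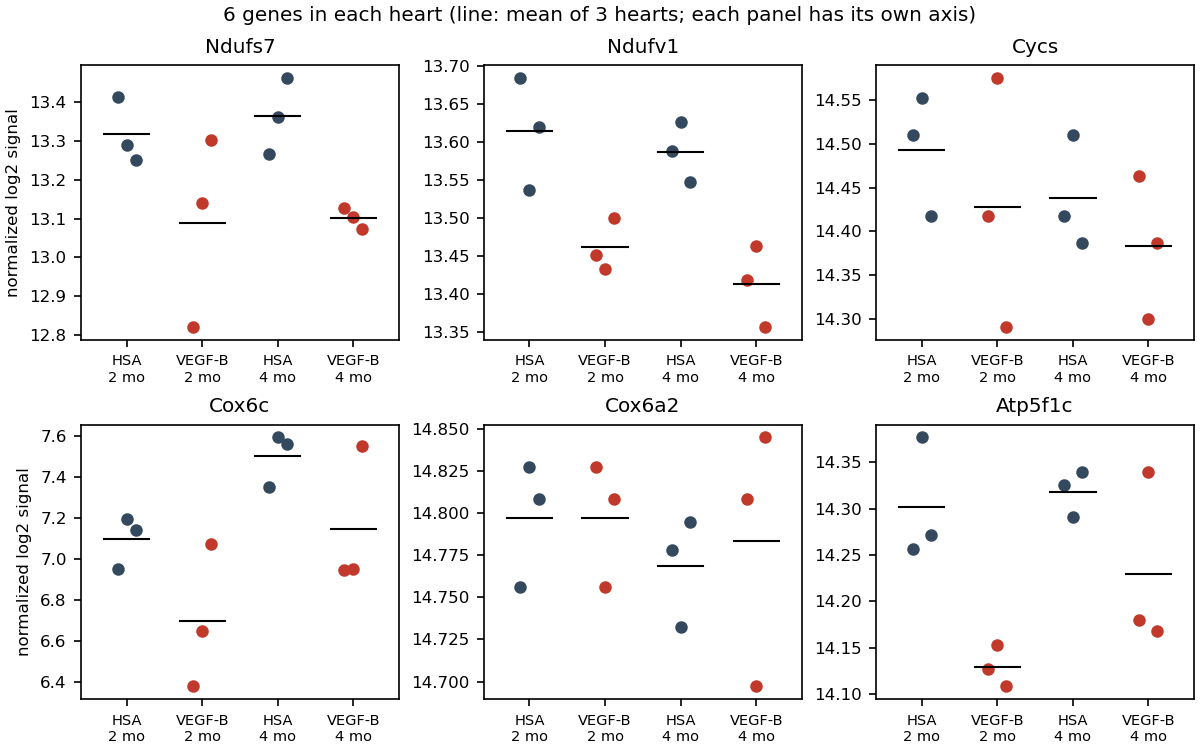
Normalized log2 signal of 6 genes in each heart (points, 3 per group), with the mean of 3 hearts as a line and a separate vertical axis for each gene. Ndufv1 is lower in every AAV-VEGF-B heart than in every AAV-HSA heart, whereas the groups overlap for Ndufs7, Cycs, Cox6c, Cox6a2 and Atp5f1c when the durations are pooled.

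Estimates for complex III and cytochrome c were close to 0, with a median change of -0.02 over the 4 complex III genes, of which 2 were below 0. Uqcrc1, a core protein of the complex, ranged from 13.88 to 14.32 (median 14.02) with AAV-VEGF-B and from 14.08 to 14.26 (median 14.13) with AAV-HSA. AAV-VEGF-B 5 was the highest of all 12 hearts and the other 5 were below every control, so the groups overlapped and the change was -0.12 (SE 0.08, adjusted p = 0.42). Uqcrfs1, the Rieske iron-sulfur protein, changed by -0.05 (SE 0.07), Uqcrb by 0.01 (SE 0.06) and Uqcrh, the hinge protein near cytochrome c1, by 0.07 (SE 0.07), none of them past the test. Cycs, which shuttles electrons from complex III to complex IV, ranged from 14.29 to 14.58 (median 14.40) with AAV-VEGF-B and from 14.39 to 14.55 (median 14.46) with AAV-HSA. The AAV-VEGF-B hearts held both the highest and the lowest Cycs values, and the change was -0.06 (95% confidence interval -0.21 to 0.09, adjusted p = 0.68). RefSeq lists near copies and pseudogenes of both Cycs and Cox6c in the rat, so how far their probes separate these is uncertain.

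In complex IV, 6 of 7 estimates were below 0, with a median of -0.04, which lay between -0.088 (without AAV-VEGF-B 2) and -0.0033 (without AAV-VEGF-B 1) when 1 heart was left out. The estimate farthest from 0 was that of the dim Cox6c probe, which ranged from 6.38 to 7.55 (median 6.95) with AAV-VEGF-B and from 6.95 to 7.60 (median 7.28) with AAV-HSA. The groups overlapped, and the change was -0.38 (SE 0.17, adjusted p = 0.22). Without background correction it was -0.19 (adjusted p = 0.23). Cox7b changed by -0.13 (SE 0.08), Cox5b by -0.12 (SE 0.08), the ubiquitous Cox4i1 by -0.03 (SE 0.08) and the muscle isoform Cox6a2 by 0.01 (SE 0.06).

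Heart muscle carries its own isoforms of some complex IV subunits, and the widely expressed partner was measured for 2 of them. The log2 change of Cox6a2 exceeded that of its partner Cox6a1 (-0.12) by 0.13 (two-sided exact permutation test over the 12 hearts, p = 0.17, n = 6 per vector), and that of Cox8b (-0.04) exceeded that of Cox8a (-0.16) by 0.11 (two-sided exact permutation test, p = 0.29). Neither difference passed the test, and the smallest p that the 924 regroupings allow is 0.0022. The regroupings ran freely over all hearts, without regard to duration or sex, so these p-values do not take the balanced design into account. The pairs of Cox7a and Cox4 were not both tested.

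The ATP synthase genes had a median change of -0.01, with 5 of 7 below 0. Its sign rested on 1 heart: the median was 0.0054 without AAV-VEGF-B 1 and between -0.044 and -0.0045 when any other heart was left out. Estimates for the subunits of its catalytic head were close to 0. Their probes lay at the top of every array, Atp5f1a at rank 1 to 3 and Atp5f1b at rank 2 to 8. Quantile normalization leaves little room for a rise there, so these values cannot show that the head was unchanged. Atp5f1a ranged from 15.27 to 15.35 with AAV-VEGF-B and from 15.31 to 15.35 with AAV-HSA, a change of -0.01 (95% confidence interval -0.14 to 0.11). Atp5f1b ranged from 15.20 to 15.31 and from 15.18 to 15.27, a change of 0.04 (SE 0.06). The rotor subunits, whose probes ranked less high (64 to 88 for Atp5f1c and 95 to 146 for Atp5f1d), had lower estimates. Atp5f1c, the gamma subunit of the rotating stalk, ranged from 14.11 to 14.34 (median 14.16) with AAV-VEGF-B and from 14.26 to 14.38 (median 14.31) with AAV-HSA. The groups overlapped only through AAV-VEGF-B 4, and the change was -0.13 (SE 0.07, adjusted p = 0.29). Atp5f1d, the delta subunit of the same stalk, changed by -0.14 (SE 0.07, adjusted p = 0.33). Of the peripheral stalk, Atp5po changed by 0.00 (SE 0.08) and Atp5pf by -0.01 (SE 0.07).

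Each array was then summarised by the mean deviation of its members from their 12-heart means, which is a description and was not tested. Over all members it ranged from -0.16 to 0.0151 with AAV-VEGF-B (median -0.03) and from 0.0156 to 0.08 with AAV-HSA (median 0.04), so that the ranges only just failed to overlap. For complex I it was -0.17, -0.0035, -0.085, -0.00096, -0.062 and -0.0062 in AAV-VEGF-B 1 to 6, and between 0.03 and 0.09 in the AAV-HSA hearts. The lowest values belonged to the 3 hearts of 2 months, and those of 4 months were close to 0. The ranges also failed to overlap for the assembly factors (highest AAV-VEGF-B heart -0.00092, lowest AAV-HSA heart 0.0048). The same held for the nucleotide and proton carriers (-0.031 and -0.0145) and the TCA cycle enzymes (-0.0075 and -0.0054). Those of complexes III, IV and V and of the other mitochondrial lists overlapped. Of single probes tested, 0.982% had all AAV-VEGF-B hearts below all AAV-HSA hearts. No such share was computed for lists of genes, and the mean deviations were taken with quantile normalization only. The narrow separations are therefore not a result about these lists.

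**Figure D3:**
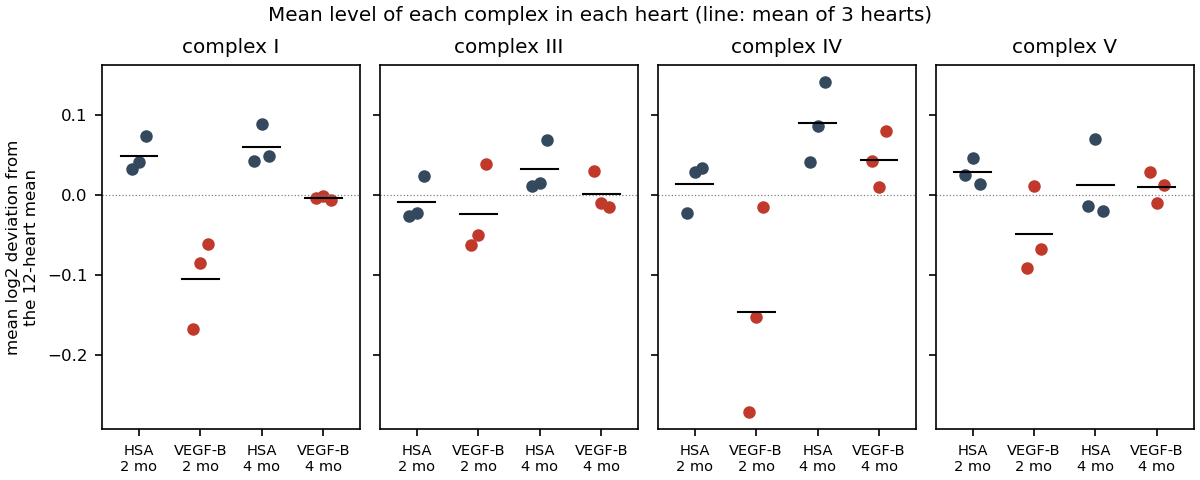
Mean log2 deviation of each complex from its 12-heart mean in each heart (points), with a line at the mean of each group of 3. The AAV-VEGF-B hearts of 2 months are the lowest 3 for complex I. AAV-VEGF-B 1 is the lowest heart for complexes I (-0.17), III (-0.063), IV (-0.27) and V (-0.092). With the durations pooled, the vector groups of complexes III, IV and V overlap.

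In the hearts of 2 months, all from females, no member was called, whereas 2.53% of all probes were called higher and 0.788% lower. At an unadjusted p below 0.05, limma gave 5 lower members and none higher, beside 8.68% and 10% of all probes. There were 11 lower members without background correction, beside 941 of 10281 probes, and 1 under median scaling, beside 236 of 10281 probes. The estimates of 34 of 38 members were below 0, with a median of -0.12 against -0.03 for all probes. In complex I all 19 were below 0 (median -0.16), in complex IV 6 of 7 (median -0.11) and in complex V 6 of 7 (median -0.10). The 5 members with an unadjusted p below 0.05 were Ndufs1 (-0.26, SE 0.10), Ndufb8 (-0.25, SE 0.10), Cox7b (-0.25, SE 0.11), Ndufa1 (-0.24, SE 0.10) and Ndufs8 (-0.22, SE 0.10), with adjusted p-values from 0.20 to 0.26. AAV-VEGF-B 1 had the lowest mean deviation of all 12 hearts. Without it, 31 of 38 estimates were below 0 (median -0.09), of which 17 of 19 in complex I (median -0.14), and the median of complex V was -0.06.

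These hearts also differed in atrial markers. Nppa and Myl7, the 2 of 4 atrial markers with a probe, had a summed signal of 7223 to 16370 with AAV-VEGF-B at 2 months and of 1543 to 3521 with AAV-HSA at 2 months, though neither gene was called. The part of atrial tissue in the lower values at 2 months was not tested.

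In the hearts of 4 months, all from males, no member was called, whereas 0.749% of all probes were called higher and 0.0389% lower. None had an unadjusted p below 0.05 in limma, beside 6.93% of all probes higher and 4.49% lower. Without background correction 4 members were lower at this threshold (3 of 19 in complex I), beside 483 of 10281 probes. Under median scaling 0 were, beside 160 of 10281 probes. The estimates of 24 of 38 were below 0 (median -0.03, against -0.02 for all probes). In complex I, 14 of 19 were below 0 (median -0.07), and in complex V 3 of 7 (median 0.00). Ndufs7 changed by -0.26 (SE 0.12) here and by -0.23 (SE 0.12) at 2 months.

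Whether the response to the vector differed between the 2 durations was tested directly. No member passed in limma (0% of all probes did), and at an unadjusted p below 0.05 there was 1 member, beside 5.27% of all probes. This was Ndufa1, a small membrane subunit of complex I. At 2 months it was at 13.27, 13.45 and 13.45 in AAV-VEGF-B 1, 3 and 5 and at 13.59, 13.61 and 13.70 in AAV-HSA 2, 4 and 6. At 4 months it was at 13.83, 13.74 and 13.64 in AAV-VEGF-B 2, 4 and 6 and at 13.77, 13.59 and 13.61 in AAV-HSA 1, 3 and 5. It was below the controls in every AAV-VEGF-B heart of 2 months and overlapped with them at 4 months, a difference between the changes of 0.32 (SE 0.14, adjusted p = 0.94). A lower set of values at 2 months than at 4 months is thus not shown by the test of the difference.

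The hearts of 4 months were compared with those of 2 months across both vectors, with the vector as a covariate. None of the 38 members was called by limma in either direction, whereas 0.447% of all probes were called higher and 0.593% lower. An unadjusted p below 0.05 was reached by 5 members higher at 4 months and by none lower, beside 8.76% and 7.88% of all probes. Under median scaling 18 members reached it, all higher (beside 11.5% of all probes), with 36 of 38 above 0 and a median of 0.17, and none was called. With quantile normalization the median change was 0.07 against 0.00 for all probes, and 12 of 38 were below 0. By complex, the medians were 0.07 for complex I, 0.02 for complex III, 0.09 for complex IV and 0.04 for complex V.

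Cox6c again stood farthest from 0. At 2 months its values were 6.38, 6.65 and 7.07 with AAV-VEGF-B and 6.95, 7.20 and 7.14 with AAV-HSA, and at 4 months they were 6.95, 6.95 and 7.55 with AAV-VEGF-B and 7.35, 7.60 and 7.56 with AAV-HSA. Within each vector the hearts of 4 months lay mostly above those of 2 months, with an overlap among the AAV-VEGF-B hearts, and the change was 0.43 (SE 0.13, adjusted p = 0.11). The other members with an unadjusted p below 0.05 were Ndufv3 (0.25, SE 0.11), Ndufa1 (0.18, SE 0.08), the muscle isoform Cox8b (0.16, SE 0.07) and Uqcrh (0.14, SE 0.06), with adjusted p-values from 0.26 to 0.29. Of the heart genes used as markers, Nppa and Myh7 were lower at 4 months (-2.50, SE 0.45, and -0.42, SE 0.08).

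The direction of these small changes was set beside the scaling of the arrays. Under scaling of each array to its median in place of quantile normalization, the median of all probes rose by about as much as the changes described, from -0.02 to 0.08 between the vectors, and the calls split into 842 higher and 27 lower in place of 429 higher and 106 lower. The members' median remained below 0, at -0.08, with 32 of 38 below 0 and none called (8.19% of all probes were higher and 0.263% lower). Relative to the median of all probes it was -0.05 with quantile normalization and -0.15 with median scaling, and for complex V 0.01 and -0.12, so the side on which the ATP synthase lay relative to other genes depended on the scaling. At 2 months the median of all probes moved from -0.03 to 0.10, and the members' median relative to it from -0.09 to -0.20.

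Other genes of the same system were counted in the same way. None was called between the vectors in complex II (0 of 4 tested), the complex I subunits outside the list (0 of 8), those of complexes III and IV (0 of 3) and of complex V (0 of 6), the assembly factors (0 of 28), coenzyme Q synthesis (0 of 7), the carriers for nucleotides and protons (0 of 8), the maintenance and transcription of mitochondrial DNA (0 of 10), the mitochondrial ribosome (0 of 29), the regulators of respiratory genes (0 of 8) or the TCA cycle (0 of 10). At an unadjusted p below 0.05, these lists held 1, 0, 0, 0, 6, 1, 1, 2, 5, 1 and 2 lower genes, in the same order, and none higher, beside 9.38% of all probes lower. Their medians lay between -0.15 and -0.01, with 26 of 28 assembly factors and 26 of 29 ribosomal proteins below 0, where 56.2% of all probes were. Under median scaling 16 of 28 and 16 of 29 were below 0, where 3356 of 10281 probes were. Below the median of all probes lay 24 of 28 and 24 of 29 under that scaling. With quantile normalization 25 of 28 and 24 of 29 did.

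Without background correction, and also in the authors' table, 5 genes of these lists were called lower between the vectors, beside 1.7% and 1.74% of all probes. They were Sdha of complex II, the assembly factors Surf1 (of complex IV) and Tmem70 (of the ATP synthase), and the ribosomal proteins Mrpl3 and Mrps35. Their log2 changes without background correction were between -0.42 (Mrps35, SE 0.11, adjusted p = 0.030) and -0.19 (Surf1, SE 0.05, adjusted p = 0.031).

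**Figure D4:**
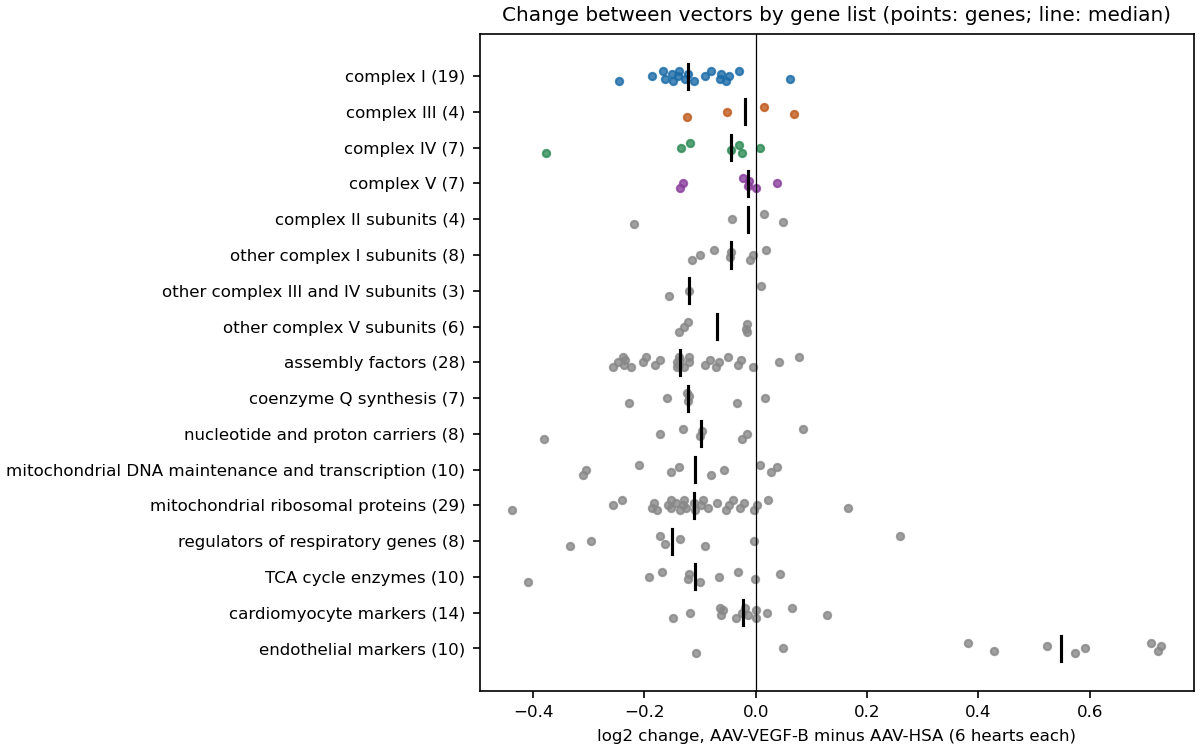
Log2 change between the vectors of each tested gene (points) by list, with the median of each list as a line and the number of genes in brackets. The mitochondrial lists have medians between -0.15 and -0.01, the cardiomyocyte markers a median of -0.02, and the endothelial markers a median of 0.55.

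A few of these genes were picked out after their values were seen, as those with the smallest p of their lists. Sdha, the flavoprotein of complex II that also serves the TCA cycle, changed by -0.22 (SE 0.07, adjusted p = 0.10), with 5 of 6 AAV-VEGF-B hearts below every AAV-HSA heart. Tmem70, an assembly factor of the ATP synthase, ranged from 10.68 to 10.87 (median 10.80) with AAV-VEGF-B and from 10.92 to 11.12 (median 11.03) with AAV-HSA. It did not overlap (-0.24, SE 0.07, adjusted p = 0.062), and 0.982% of all probes tested were separated in this direction. No share was computed for 5 of 6 hearts, as in Sdha. The mitochondrial ribosome held a smaller adjusted p, 0.052. Ppargc1b, a coactivator of mitochondrial genes, changed by -0.33 (SE 0.10, adjusted p = 0.068).

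Of these genes, 1 was called at 2 months and 1 between the durations, both lower, beside 0.788% and 0.593% of all probes, so that neither is a result about these lists. Mrps35, a protein of the small subunit of the mitochondrial ribosome, was at 11.28, 11.59 and 11.24 in AAV-VEGF-B 1, 3 and 5 and at 11.95, 12.11 and 11.93 in AAV-HSA 2, 4 and 6, so the groups were far apart at 2 months (-0.63, SE 0.12, adjusted p = 0.014). At 4 months its change was -0.25 (SE 0.12, adjusted p = 0.45), and the difference between the durations did not pass (adjusted p = 0.94). Atpaf2, which assembles the head of the ATP synthase, ranged from 10.83 to 11.12 at 2 months and from 10.52 to 10.71 at 4 months. Its groups did not overlap, and it was lower at 4 months by a log2 change of -0.32 (SE 0.06, adjusted p = 0.031).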

How the data were processed

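Left ventricular RNA of 12 rat hearts was labelled with biotin and hybridised to Illumina RatRef-12 BeadChips. The authors exported the deposited probe intensities, which were neither normalized nor background-corrected, from GenomeStudio. The deposited detection p-values compare each signal with the negative controls of its array. The authors' deposited log2 table was quantile-normalized in Chipster without background correction, since it differed by at most 0.005 from log2 of the quantile-normalized intensities computed here, and it served as an alternative. No aligner or genome build applies.

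The intensities were processed with neqc of limma 3.58.1 in R 4.3.3 (normexp by detection p-values, offset 16, quantile normalization, log2). Probes with a detection p-value below 0.05 on at least 3 of 12 arrays were kept, 10281 of 22517. Gene names came from the platform annotation, updated through RefSeq gene IDs, of which 13747 of 13787 were matched, and 8730 probes had no symbol. The comparison of the vectors used lmFit and eBayes and no covariate. The changes at 2 and 4 months and their difference came from 4 groups of 3 hearts with 1 shared estimate of the spread, and duration was tested with vector as a covariate. The Benjamini-Hochberg adjustment ran over all 10281 probes, and the number of arrays limits the precision. Replicates were separate hearts.

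Named were all called members, the 3 members of each complex with the largest change between vectors, the 3 with the smallest p between durations, the isoform pairs, Cycs, and called genes of the other lists. Ndufv1, Ndufb5, Ndufb8, Ndufs8, Cox5a, Atp5f1a, Sdha, Surf1, Tmem70, Mrpl3 and Ppargc1b fall outside this rule and were chosen after their values were seen. Members and lists were chosen with earlier results of these data known. Alternatives were no background correction, median scaling, the authors' table, other filters on dim probes, duration as a block, the replicate number as a block, single durations or vectors, and leaving out each heart. The fits were tested on simulated data. No columns of other samples were present.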

Additional observations from a re-analysis of the deposited data

Results flagged for a closer look

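For each of the 38 members, the highest and the lowest of the 6 hearts of each vector were compared with the rest, and 2 of 76 groups held a heart that stood apart by Dixon's criterion, where chance gives about 5%. Cox5a, a subunit of complex IV, was lowest in AAV-VEGF-B 1 (14.18), with the next heart at 14.40. Atp5f1c, the gamma subunit of the ATP synthase, was highest in AAV-VEGF-B 4 (14.34), with the next heart at 14.18. AAV-VEGF-B 1 was also the heart with the lowest mean deviation over all members (-0.16).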

How the results depend on the processing

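Counts of members called with an adjusted p stayed at 0 in all 5 comparisons under every alternative except between the vectors, where without background correction and in the table of the authors, Ndufs7 and Ndufv1 (2 members) were lower. Ndufs7 changed by -0.24 under both. The cause was not tested. Under median scaling the median change between the vectors was -0.083 for complex I and -0.087 for complex IV. Between 4 and 2 months the medians under that scaling were 0.16 for complex I, 0.13 for complex III, 0.18 for complex IV and 0.13 for complex V. In the AAV-HSA hearts alone the medians between the durations were 0.024 for complex I and -0.014 for complex V. When each heart was left out in turn, the median of complex V between the durations lay between -0.0076 and 0.062, the lowest without AAV-VEGF-B 5, and between the vectors that of complex I between -0.14 and -0.09, of complex IV between -0.088 and -0.0033 and of complex V between -0.044 and 0.0054, the highest of the last 2 without AAV-VEGF-B 1.

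Replicate numbers are shared by hearts of different durations and did not pair them: residuals of hearts with the same number correlated between -0.07 and 0.05, and 0 of 6 hearts correlated best with their own number. With the replicate number as a block, 0 members were called and the median of complex I between the vectors was -0.12. No member had a further probe, so the choice among probes was not run. With quantile normalization, the widest confidence interval of a member reached 1.66-fold between the vectors. The dim probes of Cox6c and Ndufv3 are close to the background.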
